A study of Mus musculus with 6 samples.

Results

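The regions described here are those of an H3K9me3 map of mouse skeletal muscle that the depositors assigned to 35 imprinted genes, chosen by gene symbol from the annotated region table. Of its 202553 regions, 574 carried one of these symbols, and they covered 27 of the 35 genes. The other 8 genes (H19, Airn, Kcnq1ot1, Meg3, Nespas, Commd1, Peg13 and Mcts2) gave their name to no region, although some had regions that the table assigns to a neighbour. H3K9me3, the trimethyl mark on lysine 9 of histone H3, was profiled by CUT&Tag, in which an antibody directs a transposase to cut and tag the DNA that carries the mark. The tissue was frozen quadriceps femoris from Prr14-KO mice (replicates 4, 5 and 7) and Prr14-WT mice (replicates 3, 4 and 8), with 3 libraries per group and no treatment in either. The PRR14 protein tethers heterochromatin to the nuclear lamina through HP1. The labels give neither the strain, age and sex of the mice nor the knockout allele, and they do not state that each library is a different mouse, so p-values measure only the spread between these libraries. Counts of a histone mark cannot check a tissue label against expressed markers, nor the genotype, and neither was checked. In whole muscle, fewer cells with a mark and less mark per cell cannot be told apart, and reads from the 2 parental alleles were counted together.

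An imprinted gene is expressed mainly or only from the copy of 1 parent. The choice is set in the germ line by DNA methylation of a control region, most often a promoter methylated in the oocyte, and in a few cases an intergenic element methylated in sperm. On the methylated copy, zinc finger proteins such as ZFP57 bind the methylated letters TGCCGC and bring TRIM28 (KAP1) and the H3K9 methyltransferase SETDB1, so that H3K9me3 and DNA methylation lie on the same allele while the active allele has neither. Many control regions drive a noncoding RNA or sit inside the intron of another gene, and dependent genes of the same cluster take their imprint from it.

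To show the sequence that lies under the mark, 4 RefSeq start windows (GRCm38.p6, 250 bases before to 50 after a start, on the strand of the gene) are printed, each of them wholly inside a region of the table. Capitals mark TGCCGC or its reverse complement GCGGCA. They come from the Mest start at chr6:30737800-30738099 on the plus strand, the Plagl1 start at chr10:13090582-13090881 on the plus strand, an upstream Zdbf2 start at chr1:63200108-63200407 on the plus strand, and the start of the noncoding RNA Kcnq1ot1 at chr7:143296498-143296797 on the minus strand.
Mest: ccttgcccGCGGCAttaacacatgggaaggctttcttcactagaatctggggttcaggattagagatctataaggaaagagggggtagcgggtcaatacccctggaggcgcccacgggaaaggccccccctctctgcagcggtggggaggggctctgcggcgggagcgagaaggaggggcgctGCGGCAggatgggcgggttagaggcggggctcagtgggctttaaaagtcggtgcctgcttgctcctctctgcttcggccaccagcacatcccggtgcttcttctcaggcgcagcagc
Plagl1: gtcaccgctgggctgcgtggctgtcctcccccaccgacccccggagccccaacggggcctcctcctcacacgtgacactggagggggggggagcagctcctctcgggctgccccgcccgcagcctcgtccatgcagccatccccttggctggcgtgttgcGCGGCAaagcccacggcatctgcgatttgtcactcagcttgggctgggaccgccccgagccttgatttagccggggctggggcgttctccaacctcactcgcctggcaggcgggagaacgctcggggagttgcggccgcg
Zdbf2, upstream start: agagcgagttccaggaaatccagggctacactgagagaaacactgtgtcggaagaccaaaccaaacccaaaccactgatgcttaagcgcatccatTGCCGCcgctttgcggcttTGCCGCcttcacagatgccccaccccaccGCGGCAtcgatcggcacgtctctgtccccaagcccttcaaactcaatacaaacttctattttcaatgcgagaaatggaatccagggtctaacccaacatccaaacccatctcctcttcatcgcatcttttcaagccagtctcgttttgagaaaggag
Kcnq1ot1: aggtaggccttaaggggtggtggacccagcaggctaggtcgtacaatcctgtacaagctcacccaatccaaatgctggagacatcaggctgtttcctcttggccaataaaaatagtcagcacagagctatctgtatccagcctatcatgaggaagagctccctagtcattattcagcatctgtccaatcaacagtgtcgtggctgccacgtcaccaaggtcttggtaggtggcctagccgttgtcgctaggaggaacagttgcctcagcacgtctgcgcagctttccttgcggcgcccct
The Mest window holds 2 matches, the Plagl1 window 1 and the upstream Zdbf2 window 3, while the Kcnq1ot1 window holds none. The table of RefSeq starts had 43 windows for 26 of the 35 genes, and 12 of them (27.9%) held the motif on either strand, against 3813 of all 32851 windows (11.6%). A region of the map overlapped 46.5% of the windows of the imprinted genes, against 11.8% of all windows. Windows of the imprinted genes are also richer in CpG, with a median of 14 CpG per window, against 7 over all windows. Among the 20 windows of imprinted genes that overlapped a region, 5 (25%) held the motif, against 15.8% of all windows that overlapped one. Among the 23 that overlapped none, 7 (30.4%) held it, against 11% of all windows without a region. Of the 5, a pair are Mest windows of nearly the same start. These shares describe letters in a fixed window and identify no bound site.

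Library totals ran from 4324444 to 4707466 counts in Prr14-KO and from 4636898 to 4756133 counts in Prr14-WT. The 574 regions took 0.268% to 0.285% of the counts of the Prr14-KO libraries, against 0.275% to 0.279% in the Prr14-WT libraries, so the total mark over these genes overlapped between the groups. The mitochondrial share of counts was 0.146%, 0.248% and 0.612% in Prr14-KO replicates 4, 5 and 7, against 0.174%, 0.189% and 0.366% in Prr14-WT replicates 3, 4 and 8. Its part in the results was not tested. Below, counts are given in the order of replicates 4, 5 and 7 for Prr14-KO and 3, 4 and 8 for Prr14-WT. CPM are counts relative to a library size (the unit CPM) after TMM scaling between libraries. That size was the counts in the regions or gene sums that passed the filter on low counts. Promoter sums instead kept the full library total, so their CPM are not on the same base as those of regions. Log2 changes are Prr14-KO over Prr14-WT from edgeR's quasi-likelihood test, and SE is the standard error of that change.

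No region, gene or promoter of the 35 imprinted genes changed in Prr14-KO muscle at an adjusted p of 0.05. Of the 574 regions, 459 passed the filter on low counts and 0 were called by edgeR, where the smallest adjusted p was 0.998. Over the whole table edgeR called 20 of 153789 regions, or 0.013%. At an unadjusted p under 0.05, 15 regions of the imprinted genes stood out, 10 of them higher and 5 lower in Prr14-KO, beside 3.84% of all regions tested. DESeq2 and limma-voom also called 0 of these regions, with 15 and 8 at an unadjusted p under 0.05. The median log2 change was 0.0057 over the 459 regions, against 0.0011 over all regions tested. In 22 regions every Prr14-KO library was above every Prr14-WT library, and in 19 every one was below, beside 9.61% of all regions whose groups did not overlap. A single region had a median SE of 0.44 on the log2 scale, so a change near or under 2-fold in a region of typical depth could not be called. Even the largest positive log2 change among these regions, 1.93 with an SE of 0.72 in a Grb10 intron, did not pass the adjusted threshold.

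**Figure D1:**
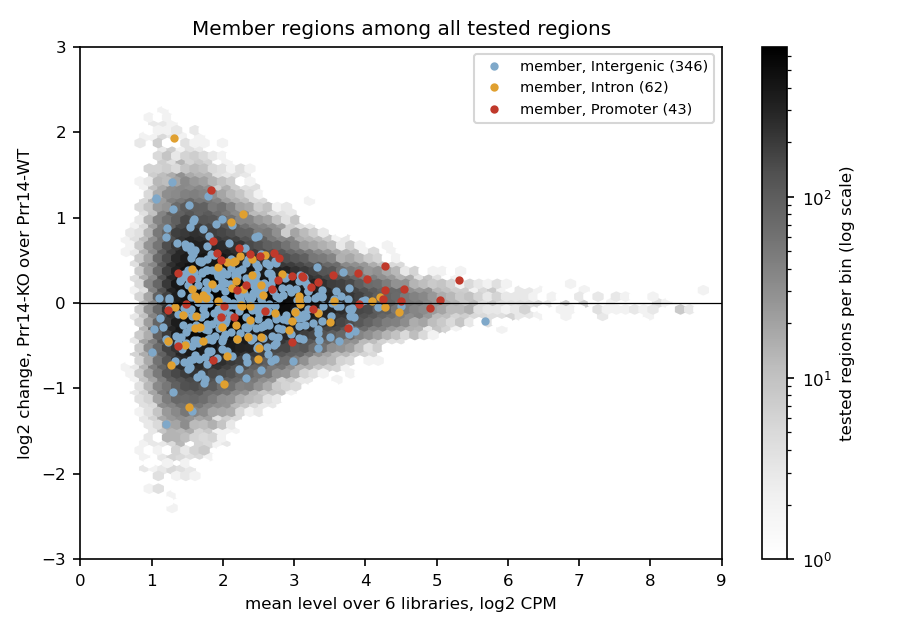
Log2 change of Prr14-KO over Prr14-WT (vertical axis) against the mean level over 6 libraries in log2 CPM (horizontal axis), with all tested regions as grey bins. Points are the Promoter, Intron and Intergenic regions of the imprinted genes, coloured by annotation class, and their 8 tested exon and untranslated-region intervals are not drawn. The points lie within the cloud of all regions at every level; the highest is a Grb10 intron region at 1.93, and the strongest of the points, the Dlk1 intergenic region on the right, is at -0.21.

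Among the 574 regions, the one with the most counts lay between Dlk1, which encodes a Notch-family ligand expressed from the paternal copy, and Meg3, a noncoding RNA expressed from the maternal copy. This interval is known to hold the sperm-methylated control element of the cluster, although whether the region coincides with it was not tested. The region (GRCm38 chr12:109526311-109528480, annotated Intergenic, 67553 bp from the Dlk1 start) held 213, 175 and 196 counts in Prr14-KO, against 219, 237 and 256 counts in Prr14-WT. Every Prr14-KO library was below every Prr14-WT library, at 47.6 ± 3.04 CPM in Prr14-KO and 55.2 ± 5.24 CPM in Prr14-WT (SD, n = 3 each). The margin was small, since Prr14-KO replicate 4 and Prr14-WT replicate 3 were nearly equal in CPM. The log2 change was -0.21 with an SE of 0.17, and edgeR gave an unadjusted p of 0.203 and an adjusted p of 0.998. Closer to Meg3, the region chr12:109539675-109540065, which the table assigns to Rtl1, held 36, 30 and 33 counts in Prr14-KO, against 34, 27 and 24 in Prr14-WT. Rtl1, a retrotransposon-derived gene of the same cluster, had its strongest region in intergenic DNA at chr12:109856215-109857380, with 63, 67 and 86 counts in Prr14-KO and 80, 80 and 76 in Prr14-WT. Together the 63 intergenic regions assigned to Dlk1 and Rtl1 had 422.3 ± 29.5 CPM in Prr14-KO, against 440.7 ± 21.4 CPM in Prr14-WT (SD, n = 3 each), with overlapping libraries. The Dlk1 gene sum, over 29 regions, was 954, 801 and 902 counts in Prr14-KO and 952, 972 and 965 counts in Prr14-WT. At its 3 promoter regions with a mean of at least 10 counts, Dlk1 held 10, 28 and 18, then 14, 15 and 26, then 21, 22 and 28 counts in Prr14-KO, against 16, 9 and 17, then 14, 11 and 10, then 33, 21 and 26 in Prr14-WT. In CPM, only the middle one of these 3, at chr12:109459325-109459601, had every Prr14-KO library above every Prr14-WT library, and its unadjusted p by edgeR was 0.163.

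The Igf2 and H19 cluster on chromosome 7 is the other classic locus with a sperm-methylated element. Igf2 encodes insulin-like growth factor 2, a paternally expressed growth factor of fetal and regenerating muscle, and H19 is the maternally expressed noncoding RNA beside it. The Igf2 region chr7:142667572-142668466, with a deposited distance to its start of -1203 bp, held 202, 183 and 146 counts in Prr14-KO, against 134, 188 and 141 in Prr14-WT. The libraries overlapped at 43.3 ± 5.78 CPM in Prr14-KO and 35.9 ± 7.31 CPM in Prr14-WT (SD, n = 3 each), with a log2 change of 0.27 and an SE of 0.18. That change was 0.16 without Prr14-WT replicate 3 and 0.45 without Prr14-WT replicate 4. The region next to it (chr7:142665598-142666395) held 90, 60 and 56 counts in Prr14-KO and 31, 84 and 54 in Prr14-WT. The smaller Igf2 promoter regions held 35, 16 and 33, then 15, 13 and 34, then 9, 14 and 11 counts in Prr14-KO, against 17, 26 and 17, then 12, 6 and 8, then 11, 29 and 17 in Prr14-WT. The second of these, at chr7:142658964-142659173, had every Prr14-KO library above every Prr14-WT library and a log2 change of 1.33 with an SE of 0.54. Its unadjusted p by edgeR was 0.0141 and its adjusted p 0.998, and its highest count, 34, was in Prr14-KO replicate 7. Over 9 regions the Igf2 sum was 399, 335 and 343 counts in Prr14-KO and 252, 402 and 294 in Prr14-WT, or 80.8 ± 6.01 CPM in Prr14-KO and 68.4 ± 17.6 CPM in Prr14-WT (SD, n = 3 each). This was the gene sum with the smallest unadjusted p by edgeR, 0.064, and the libraries overlapped. Its log2 change of 0.24 was 0.095 without Prr14-WT replicate 3 and 0.47 without Prr14-WT replicate 4.

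Which region of the Igf2 and H19 cluster, if any, covers its sperm-methylated element was not tested. Near H19, 1 small region lay 2242 bp beyond the RefSeq span, at chr7:142580388-142580592, and the table assigns it to Mrpl23. It held 14, 5 and 4 counts in Prr14-KO, against 19, 22 and 16 in Prr14-WT, so every Prr14-KO library was below every Prr14-WT library. The log2 change was -1.24 with an SE of 0.58, an unadjusted p of 0.0326 and an adjusted p of 0.998 by edgeR. It was 1 of 28 regions tested within 5 kb of the spans of the genes that gave no region their name, and 2 of these 28 had an unadjusted p under 0.05, beside 3.84% of all regions tested.

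Several of the strongest regions sat on promoters methylated in the oocyte. Impact, which encodes a regulator of the kinase GCN2, had a region at chr18:12972792-12974548 with 146, 100 and 163 counts in Prr14-KO and 126, 152 and 141 in Prr14-WT. Peg3, a zinc finger gene, and Usp29, a ubiquitin protease gene read in the opposite direction, share the region chr7:6729389-6730563, which held 95, 83 and 100 counts in Prr14-KO and 101, 104 and 84 in Prr14-WT. Mest, which encodes a hydrolase-fold protein, carried 93, 62 and 95 counts in Prr14-KO and 76, 85 and 75 in Prr14-WT over the printed start window (chr6:30736977-30738366). In none of these 3 did the groups separate, and their log2 changes were 0.04, 0.02 and 0.16 with SEs of 0.19, 0.21 and 0.22. Slc38a4, an amino acid transporter gene, had 83, 79 and 75 counts in Prr14-KO and 73, 97 and 72 in Prr14-WT at chr15:97054498-97055783. Grb10, which encodes an adaptor that restrains insulin receptor signalling, had 141, 84 and 79 counts in Prr14-KO and 93, 88 and 104 in Prr14-WT at chr11:12025556-12026962. Here 1 Prr14-KO library, replicate 4, was above all others, while the 5 remaining libraries lay between 79 and 104 counts.

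The Snrpn promoter is the control region of the Prader-Willi cluster. Just downstream of the Snrpn start at chr7:60005199 lay a region assigned to Snurf, the reading frame that shares its transcript (chr7:60003688-60005116). It held 92, 94 and 109 counts in Prr14-KO, against 104, 76 and 100 in Prr14-WT, with a log2 change of 0.16. Plagl1 encodes a zinc finger factor that restrains cell growth, and the region over its printed window (chr10:13090554-13091279) held 35, 29 and 28 counts in Prr14-KO and 29, 29 and 22 in Prr14-WT. With the scaling of the region table, but not with that of promoter sums, Plagl1 was higher in every Prr14-KO library than in every Prr14-WT library, at 7.5 ± 0.587 CPM in Prr14-KO and 6.19 ± 0.893 CPM in Prr14-WT (SD, n = 3 each), with an unadjusted p of 0.433 by edgeR. The other Plagl1 promoter regions held 36, 47 and 34, then 9, 14 and 16 counts in Prr14-KO, against 33, 44 and 22, then 11, 2 and 21 in Prr14-WT. Peg10, a retrotransposon-derived gene, and Sgce, the gene of epsilon-sarcoglycan, part of a muscle membrane complex, start side by side. The region at their start (chr6:4746746-4747289) held 30, 34 and 33 counts in Prr14-KO and 29, 23 and 16 in Prr14-WT. Every Prr14-KO library was above every Prr14-WT library there, and the log2 change was 0.59 with an SE of 0.36 and an unadjusted p of 0.101 by edgeR. The 2 Peg10 promoter regions beside it held 27, 24 and 32, then 8, 26 and 11 counts in Prr14-KO, against 17, 36 and 25, then 28, 13 and 13 in Prr14-WT, and their groups overlapped.

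Gnas encodes the stimulatory G protein subunit from a locus with several promoters. Its strongest region (chr2:174284187-174285264) held 67, 72 and 45 counts in Prr14-KO and 59, 86 and 50 in Prr14-WT, and the region at chr2:174326838-174327990 held 30, 40 and 44 in Prr14-KO and 36, 42 and 49 in Prr14-WT. The other 3 Gnas promoter regions held between 14 and 40 counts in Prr14-KO and between 11 and 31 counts in Prr14-WT. The groups overlapped in all 5 Gnas promoter regions. Zdbf2, a zinc finger gene expressed from the paternal copy, had 42, 42 and 39 counts in Prr14-KO and 38, 36 and 40 in Prr14-WT at its start (chr1:63272831-63273892). With the scaling of the region table each Prr14-KO library was above each Prr14-WT library by a small margin, at 10.1 ± 0.467 CPM in Prr14-KO and 8.84 ± 0.499 CPM in Prr14-WT (SD, n = 3 each), and edgeR gave an unadjusted p of 0.528. With the scaling of promoter sums the libraries overlapped, at 9.04 ± 0.951 CPM in Prr14-KO and 8.29 ± 0.112 CPM in Prr14-WT (SD, n = 3 each). The region over the printed upstream start, assigned to an intron of Gpr1, held 13, 21 and 29 counts in Prr14-KO and 21, 30 and 16 in Prr14-WT. Further genes for which their own or an alternative promoter is of the oocyte type had weaker regions. Inpp5f, a phosphatase gene with an imprinted retrotransposed transcript, had 28, 34 and 44 counts in Prr14-KO and 35, 23 and 32 in Prr14-WT at its main start, and 24, 23 and 23 in Prr14-KO against 6, 18 and 23 in Prr14-WT at chr7:128687930-128688475. Nnat, a small membrane protein gene, and Nap1l5, a nucleosome assembly gene, had start regions of 12, 6 and 10 counts and 8, 27 and 20 counts in Prr14-KO, against 7, 7 and 17 counts and 16, 12 and 11 counts in Prr14-WT.

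**Figure D2:**
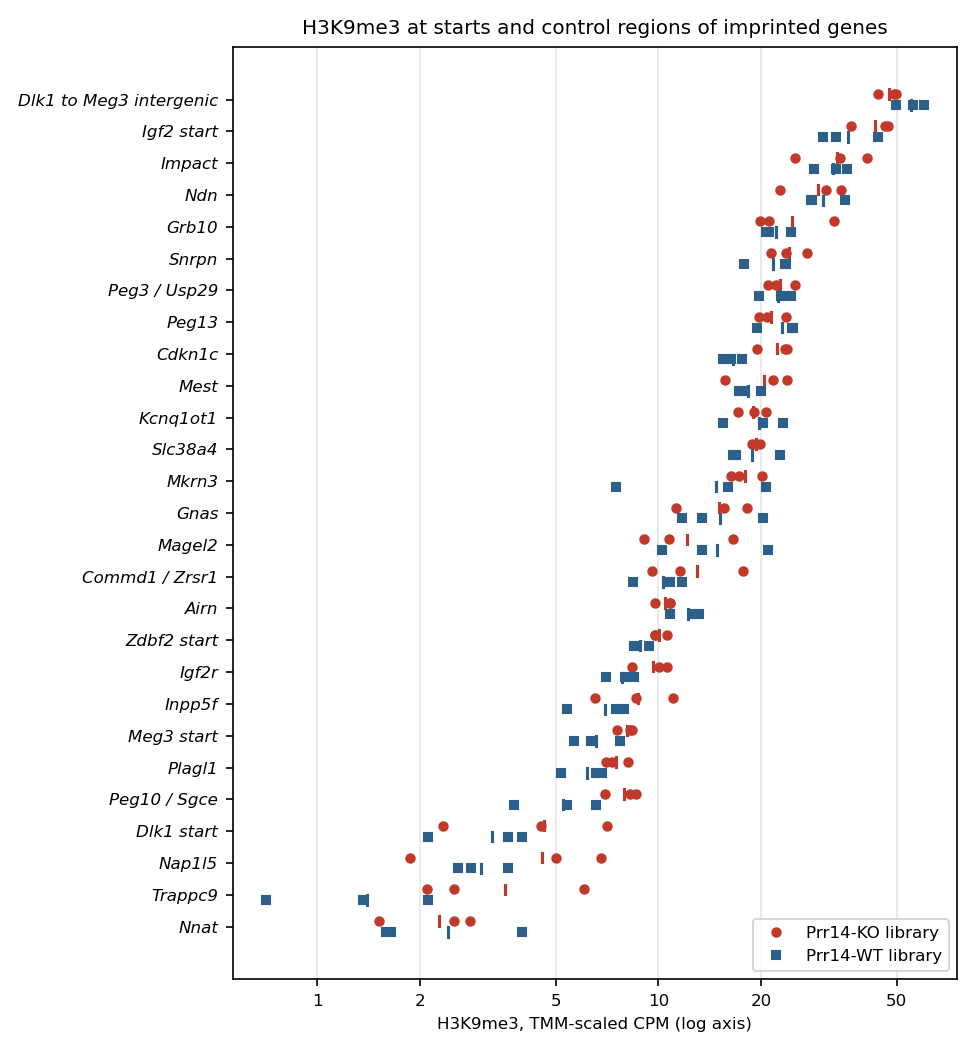
H3K9me3 level in TMM-scaled CPM on a log axis for the strongest region at the start of each imprinted gene, with the Dlk1 to Meg3 intergenic region and the Impact and Grb10 promoters added; circles above are the 3 Prr14-KO libraries, squares below the 3 Prr14-WT libraries, and vertical ticks the group means. Levels span more than 10-fold between genes, and the groups lie close together or overlap in most rows; the Cdkn1c row, at 22.3 CPM in Prr14-KO and 16.5 CPM in Prr14-WT, is one of those where they do not overlap.

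Control elements within the intron of a host gene carried the mark as well. Airn is the noncoding RNA whose transcription silences Igf2r on the paternal copy. An Igf2r intron region (chr17:12741462-12742784) began just downstream of the Airn start at chr17:12741311. This region held 42, 43 and 43 counts in Prr14-KO and 56, 56 and 46 in Prr14-WT. Its log2 change was -0.23 with an SE of 0.27. The Igf2r promoter regions, on the gene for a receptor that clears insulin-like growth factor 2, held 36, 42 and 40, then 16, 16 and 17 counts in Prr14-KO, against 31, 34 and 36, then 18, 13 and 22 in Prr14-WT. Kcnq1ot1, the noncoding RNA of the Cdkn1c cluster, starts within a region assigned to Cdkn1c (chr7:143295076-143296955) that held 89, 68 and 76 counts in Prr14-KO and 89, 66 and 99 in Prr14-WT. Peg13, a noncoding RNA inside Trappc9, had 102, 78 and 83 counts in Prr14-KO and 109, 105 and 83 in Prr14-WT at chr15:72809930-72810876. The regions at or beside these 3 noncoding RNA starts had log2 changes of -0.23, -0.05 and -0.10, each smaller than its SE. Zrsr1, a splicing factor retrogene inside Commd1, had 76, 38 and 46 counts in Prr14-KO and 37, 50 and 46 in Prr14-WT at chr11:22972085-22973067, and 4, 10 and 21 in Prr14-KO and 6, 9 and 14 in Prr14-WT in a small region beside it. The remaining hosts had weak promoters: Herc3 held 12, 12 and 10 counts in Prr14-KO and 10, 8 and 18 in Prr14-WT, and Trappc9 held 9, 24 and 10 in Prr14-KO and 6, 3 and 9 in Prr14-WT, and the Trappc9 region was below the filter. No region lay within 1 kb of the RefSeq start of H13, or within 5 kb of the span of Mcts2, the retrogene inside it.

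Dependent genes take their imprint from a control region at a distance. Cdkn1c, which encodes the cyclin-dependent kinase inhibitor p57 and is expressed from the maternal copy, had its promoter region at chr7:143459908-143461612. It held 101, 77 and 95 counts in Prr14-KO, against 72, 66 and 75 in Prr14-WT, and every Prr14-KO library was above every Prr14-WT library. In CPM this was 22.3 ± 2.46 in Prr14-KO and 16.5 ± 1.06 in Prr14-WT (SD, n = 3 each), a log2 change of 0.43 with an SE of 0.22. The unadjusted p by edgeR was 0.0469 and the adjusted p 0.998. With only the strongest start region of each gene taken, 23 were tested, and no other had an unadjusted p under 0.05 by edgeR. That stands beside 4.86% of all Promoter-class regions and 3.84% of all regions tested. A weaker Igf2 start region, given above, also had an unadjusted p under 0.05 by edgeR. Ndn, a MAGE-family gene of the Prader-Willi cluster, had 133, 90 and 137 counts in Prr14-KO and 124, 119 and 150 in Prr14-WT at chr7:62348181-62349439. Its neighbour Magel2, a MAGE gene that acts with ubiquitin ligases, had 46, 36 and 66, then 56, 36 and 42 counts in Prr14-KO, against 45, 89 and 57, then 42, 35 and 42 in Prr14-WT. Mkrn3, a ubiquitin ligase gene, had 74, 80 and 65 counts in Prr14-KO and 91, 32 and 68 in Prr14-WT, where Prr14-WT replicate 4 was the low library. The Ndn, Magel2 and Mkrn3 groups overlapped.

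In all, 27 of the 35 genes had a region within 1 kb of a RefSeq start or span end. Some, such as Igf2, Gnas and Mest, had several, and only the region with the most counts was taken for each gene. This gave 24 distinct regions with a median width of 964 bp. For 8 of these genes the table assigns that region to another symbol, and for 4 it is not in a Promoter class. Of the 23 that could be tested, 16 had a positive and 7 a negative log2 change, from -0.29 at Magel2 to 0.59 at Peg10 and Sgce, with a median of 0.19. Over all 9639 Promoter-class regions tested, 5316 changes were positive and 4323 negative, with a median of 0.056. The 8 genes without such a region were H19, Grb10, Rtl1, Nespas, Impact, Mcts2, H13 and Herc3, and the Grb10 promoter region lay 1009 bp from the nearest Grb10 start in RefSeq. For Impact the table's own column gives its region a distance of -628 bp to a start, while the RefSeq span begins elsewhere.

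Promoter regions of the imprinted genes were wide and held many counts in both genotypes. The 49 Promoter-class regions had a median width of 448 bp, against 328 bp for the 12773 Promoter-class regions of the whole table, and 24.5% of them reached a mean of 50 counts, against 6.04%. Over all classes the share reaching 50 counts was 6.45% for the imprinted genes and 5.05% for the table. Their density was 15.57, 15.06 and 15.86 CPM per kb in Prr14-KO, against 12.75, 14.34 and 14.16 CPM per kb in Prr14-WT, so with the scaling of the region table every Prr14-KO library was above every Prr14-WT library. With the scaling of promoter sums the groups overlapped, at 15.57, 13.31 and 12.92 CPM per kb in Prr14-KO and 12.43, 13.91 and 12.4 CPM per kb in Prr14-WT. The means were 15.5 ± 0.407 CPM per kb in Prr14-KO and 13.75 ± 0.87 CPM per kb in Prr14-WT (SD, n = 3 each); no test was made of this sum over the list. The 10 exon and untranslated-region intervals had 13.05, 11.33 and 11.12 CPM per kb in Prr14-KO and 8.74, 10.38 and 10.51 in Prr14-WT. Here too, with the scaling of the region table, every Prr14-KO library was above every Prr14-WT library. Intron regions (84) had 11.36 ± 0.682 CPM per kb in Prr14-KO and 11.27 ± 0.428 in Prr14-WT, and Intergenic regions (431) had 11.31 ± 0.445 in Prr14-KO and 11.58 ± 0.142 in Prr14-WT. Promoter density was therefore 1.371 ± 0.0497 times Intergenic density in Prr14-KO and 1.187 ± 0.0615 times in Prr14-WT, and 1.367 ± 0.0512 times Intron density in Prr14-KO and 1.223 ± 0.121 times in Prr14-WT. Over all Promoter-class regions of the table the density was 20.73 ± 0.719 CPM per kb in Prr14-KO and 20.2 ± 0.86 CPM per kb in Prr14-WT, with overlapping libraries. All Intergenic regions of the table had 12.27 ± 0.251 CPM per kb in Prr14-KO and 12.28 ± 0.107 in Prr14-WT. All Intron regions had 12.1 ± 0.295 in Prr14-KO and 12.01 ± 0.139 in Prr14-WT. By this summed density, promoters were denser than introns and intergenic regions in the whole table as well as among the imprinted genes. Those values are summed counts over summed length, and medians of single regions differed from them. The median region of the imprinted genes had 13.28 CPM per kb in promoters, 11.31 in introns and 11.6 in intergenic DNA. Over the whole table these medians were 10.99, 11.04 and 11.13, so the typical promoter region there was not denser.

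**Figure D3:**
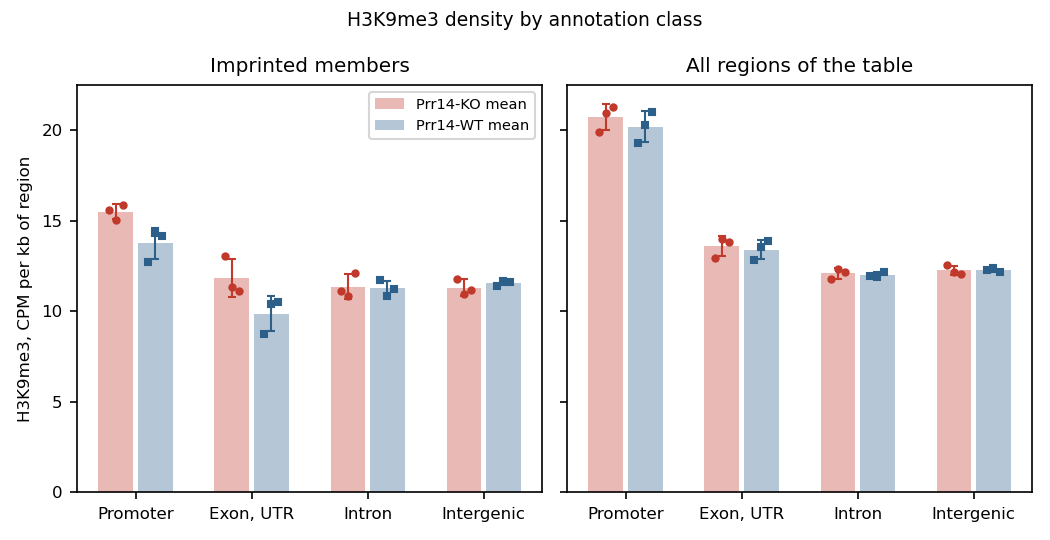
H3K9me3 density in CPM per kb of region by annotation class, for the regions of the imprinted genes (left) and all regions of the table (right); bars are means of 3 libraries, Prr14-KO left of Prr14-WT in each pair, points are single libraries and error bars 1 SD. Among the imprinted genes the Promoter class is the densest, at 15.5 CPM per kb in Prr14-KO and 13.75 CPM per kb in Prr14-WT, while Intron and Intergenic bars of both genotypes lie near 11 CPM per kb.

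Taken one at a time, 43 of the 49 promoter regions of the imprinted genes were tested, with 30 positive and 13 negative log2 changes and a median of 0.21, against a median of 0.056 over all 9639 Promoter-class regions tested. In 7 of the 43 every Prr14-KO library was above every Prr14-WT library with the scaling of the region table, beside 5.45% of all Promoter-class regions tested. These 7 belonged to Cdkn1c, Dlk1, Igf2, Inpp5f, Plagl1, Sgce and Zdbf2. With the scaling of promoter sums there were 5, at Cdkn1c, Dlk1, Igf2, Sgce and Igf2r, beside 4.31% of all Promoter-class regions. The opposite order was seen in 0 of the 43 with either scaling, beside 4.04% of all Promoter-class regions with the region scaling and 5% with the promoter scaling. The 2 regions with an unadjusted p under 0.05 by edgeR, at Igf2 and Cdkn1c, stand beside 4.86% of all Promoter-class regions, and 0 passed the adjusted threshold by edgeR. Summed per gene, 26 genes had Promoter-class counts and 22 could be tested, all but H13, Rtl1, Trappc9 and Usp29. None of the 22 sums was called by edgeR, DESeq2 or limma-voom or had an unadjusted p under 0.05 in any of these tools, beside 0.0137% of all 7309 promoter sums called by edgeR and 3.82% with an unadjusted p under 0.05. The median log2 change of these sums was 0.13, with 15 positive and 7 negative, against -0.0017 over all promoter sums. With the scaling of the region table in place of that of promoter counts, the medians were 0.19 for the imprinted genes and 0.067 for all, a shift that both share. Cdkn1c, Inpp5f and Sgce had every Prr14-KO library above every Prr14-WT library and 0 of the 22 had every one below, beside 9.41% of all promoter sums whose groups did not overlap. The widest difference was at Sgce, 0.51 with an SE of 0.39 (0.28 without Prr14-WT replicate 8), and the most negative at Magel2, -0.13 with an SE of 0.23.

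At the level of whole genes, counts over all assigned regions gave smaller errors, with a median SE of 0.15. All 27 sums were tested, and edgeR, DESeq2 and limma-voom called 0 of them, with 0, 0 and 1 at an unadjusted p under 0.05. Over the table edgeR called 6 of 15265 gene sums, or 0.0393%, and 3.58% had an unadjusted p under 0.05. The median log2 change was -0.020 over the 27 genes, 11 positive and 16 negative, against 0.0016 over all genes. Inpp5f had every Prr14-KO library above every Prr14-WT library and Zrsr1 every one below, beside 8.5% of all gene sums whose groups did not overlap. Among sums with a positive change, the 5 with the smallest p were Igf2, Nap1l5, Inpp5f, Trappc9 and Cdkn1c, from 0.14 at Trappc9 to 0.91 at Nap1l5. Single libraries weighed on them: Trappc9 was 0.032 without Prr14-WT replicate 8 and 0.23 without Prr14-WT replicate 3, and Cdkn1c was 0.041 without Prr14-WT replicate 4 and 0.27 without Prr14-WT replicate 8. Inpp5f was 0.12 without Prr14-WT replicate 4, and Nap1l5 was 0.60 without Prr14-KO replicate 7. Nap1l5 rested on 12, 28 and 34 counts in Prr14-KO and 16, 14 and 11 in Prr14-WT. Inpp5f had 196, 189 and 206 counts in Prr14-KO and 182, 149 and 198 in Prr14-WT, Trappc9 544, 466 and 520 in Prr14-KO and 547, 484 and 418 in Prr14-WT, and Cdkn1c 283, 239 and 285 in Prr14-KO and 252, 210 and 298 in Prr14-WT. On the negative side the 5 with the smallest p were Usp29, Dlk1, Rtl1, Zdbf2 and Herc3, between -0.14 and -0.061. Usp29 held 253, 232 and 369 counts in Prr14-KO and 324, 285 and 354 in Prr14-WT, Rtl1 1046, 875 and 945 in Prr14-KO and 1002, 1057 and 1054 in Prr14-WT, and Zdbf2 458, 426 and 429 in Prr14-KO and 533, 449 and 460 in Prr14-WT. Herc3 held 71, 142 and 95 counts in Prr14-KO and 105, 115 and 134 in Prr14-WT. None of these signs was a call, and those of Usp29 and Herc3 turned with a single library left out. Dlk1 and Rtl1 were -0.0052 and -0.012 without Prr14-KO replicate 5, and Zdbf2 was -0.0006 without Prr14-WT replicate 3.

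**Figure D4:**
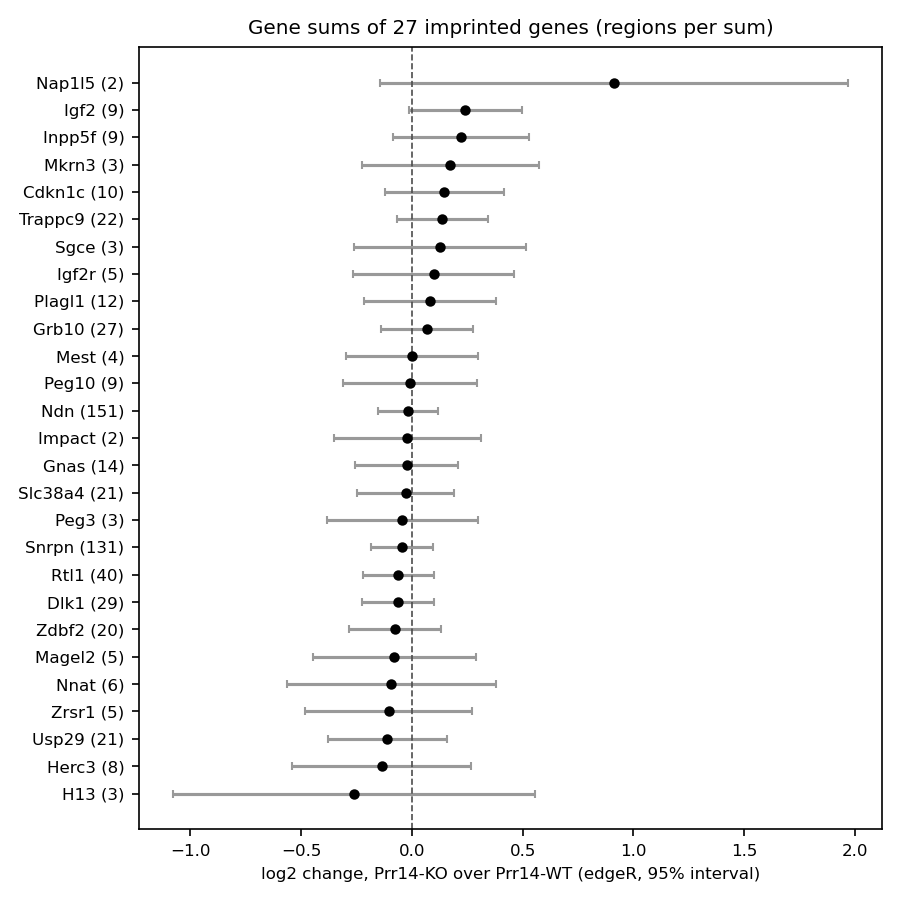
Log2 change of Prr14-KO over Prr14-WT for the gene sums of the 27 imprinted genes with a region (edgeR), with the number of regions per sum in brackets and bars for the 95% interval. Every interval includes 0, and the narrowest belong to Ndn and Snrpn, which have the most regions.

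The Snrpn and Ndn symbols took most regions because the table assigns a long gene-poor stretch of the Prader-Willi cluster to them. Ndn had 151 regions and Snrpn 131, and their 268 intergenic regions, from chr7:60163316 to chr7:62335472, held 42% of all counts of the imprinted genes. This stretch had 1348, 1209 and 1239 CPM in Prr14-KO, against 1259, 1289 and 1272 CPM in Prr14-WT. The means were 1265 ± 73 CPM in Prr14-KO and 1274 ± 15 CPM in Prr14-WT (SD, n = 3 each), with overlapping libraries. For the gene sums, the 95% interval of the log2 change by edgeR ran from -0.15 to 0.12 for Ndn and from -0.19 to 0.095 for Snrpn, the tightest bounds available for these genes. The strongest Snrpn region lay in this stretch (chr7:60898203-60899868), with 63, 61 and 73 counts in Prr14-KO and 75, 68 and 60 in Prr14-WT.

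Away from promoters, 13 of the 15 regions with an unadjusted p under 0.05 were small Intron, Intergenic or untranslated-region intervals. The smallest p belonged to a Grb10 intron region of 159 bp (chr11:11963682-11963841), with 13, 15 and 20 counts in Prr14-KO, against 4, 6 and 3 in Prr14-WT. Every Prr14-KO library was above every Prr14-WT library, the log2 change was 1.93 with an SE of 0.72, and edgeR gave an unadjusted p of 0.0076 and an adjusted p of 0.998. The strongest non-promoter regions of other genes overlapped between groups. Peg10 had 78, 60 and 31 counts in Prr14-KO and 59, 65 and 61 in Prr14-WT at chr6:4768703-4770065, and Sgce 50, 58 and 37 in Prr14-KO and 54, 60 and 37 in Prr14-WT at chr6:4735430-4736221. Zdbf2 had 25, 55 and 39 counts in Prr14-KO and 48, 53 and 65 in Prr14-WT at chr1:63325959-63327060, and Inpp5f 44, 38 and 36 in Prr14-KO and 51, 44 and 40 in Prr14-WT at chr7:128665902-128666962. Usp29 and Herc3 had regions of 28, 32 and 43 and of 18, 44 and 32 counts in Prr14-KO, against 24, 40 and 42 and 35, 22 and 50 counts in Prr14-WT. Among other Promoter-class regions with a mean of at least 10 counts, those of Mest (35, 25 and 21 counts in Prr14-KO, 27, 35 and 55 in Prr14-WT), Nnat (23, 26 and 10 in Prr14-KO, 19, 12 and 25 in Prr14-WT), Peg3 (26, 19 and 7 in Prr14-KO, 16, 28 and 17 in Prr14-WT) and Slc38a4 (7, 10 and 9 in Prr14-KO, 11, 6 and 22 in Prr14-WT) also overlapped.

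By role, the 15 genes with a control region at their own or an alternative promoter had a median gene-sum log2 change of -0.020. The 4 with a paternally methylated element nearby had -0.061. The 4 host genes had a median of -0.019 and the 4 dependent genes 0.065, with 0 calls by edgeR and 0 at an unadjusted p under 0.05 in each of the 4 groups. Of 50 further imprinted genes, 40 had tested sums, of which edgeR called 0 higher and 1 lower in Prr14-KO, with 2 higher and 5 lower at an unadjusted p under 0.05. Over all gene sums tested these shares were 0.0393% called and 3.58% at an unadjusted p under 0.05. The call was Ppp1r9a, a neuronal actin-binding protein gene near Peg10 and Sgce, with 394, 423 and 447 counts in Prr14-KO and 951, 710 and 807 in Prr14-WT. Its log2 change was -0.90 with an SE of 0.098 and an adjusted p of 1.01e-10 by edgeR. A single intron region (chr6:4923777-4924243) held much of it, with 234, 229 and 219 counts in Prr14-KO and 711, 485 and 578 in Prr14-WT. On the same chromosome, Peg10 had a log2 change of -0.008 and Sgce of 0.13, with SEs of 0.15 and 0.20. Rasgrf1, another gene with a sperm-methylated element upstream, had 181, 142 and 185 counts in Prr14-KO and 154, 174 and 145 in Prr14-WT in its strongest region (chr9:89879719-89881595), and the groups overlapped. Of 16 genes of the imprint maintenance machinery, among them Zfp57, Trim28, Setdb1 and Dnmt1, 9 had tested sums, of which 0 were called by edgeR and 0 had an unadjusted p under 0.05.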

How the data were processed

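CUT&Tag libraries for H3K9me3 were grouped by the genotype label. Per the submitters' processing notes, the tools were BWA, Trimmomatic, bedtools, deepTools, MACS2 and DESeq2 1.6.3, with the build GRCm38; their settings, and any pooling before regions were called, are not given there. The authors deposited 1 table with raw counts per region for each library. Its normalised signal, the deposited log2 fold change, the deposited p-value and adjusted p-value, and the deposited score, whose meaning is not given, were not used. Its symbols, classes, distances and positions were taken over as deposited, with no statement at hand of the base from which positions count.

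Counts per region, per gene symbol and per gene's Promoter-class regions (up to 3 kb from a start, by the class names) were tested in edgeR 4.0.16 (R 4.3.3) with the robust quasi-likelihood test, TMM scaling and filterByExpr (minimum count 10, minimum total 15). Promoter sums kept the full library totals. Adjustment was Benjamini-Hochberg over all features of a level. DESeq2 1.42.0 and limma-voom 3.58.1 were alternatives, beside other scalings, filters and each library left out. The scripts were tested on simulated data. Starts and windows came from RefSeq (GRCm38.p6), which had starts for 26 genes and not for 9. Members and gene lists were chosen with earlier results of these data known. Values named are all Promoter-class regions with a mean of at least 10 counts, the strongest region of well-covered genes, regions with an unadjusted p under 0.01, and the 5 gene sums with the smallest p in each direction; the H19, Meg3, Snurf, Gpr1, Ppp1r9a and Rasgrf1 regions were added after their values were seen.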

Additional observations from a re-analysis of the deposited data

How the results depend on the processing

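All counts of called regions, gene sums and promoter sums of the imprinted genes stayed at 0 under every alternative run, including an adjusted p of 0.10 and each library left out. For 18 named values, 236 of 242 alternative values kept direction and stayed short of the threshold, and 6 turned round. Keeping direction does not mean keeping size, since leaving out 1 library moved several by over 1.5 times: the Igf2 promoter sum (0.2529) ran from 0.0816 without Prr14-KO replicate 4 to 0.5161 without Prr14-WT replicate 4, and that of Cdkn1c (0.3702) from 0.2291 without Prr14-KO replicate 4 to 0.4722. With each library left out in turn, the log2 change of the Usp29 sum ran from -0.3528 to 0.0071 (positive without Prr14-KO replicate 5) and that of Herc3 from -0.4558 to 0.0770 (positive without Prr14-KO replicate 4). With promoter and genic regions only, which leaves out intergenic regions, Dlk1 became 0.2451, Rtl1 0.0624, Zdbf2 0.2076 and Herc3 0.0014. For regions of 500 bp or more, promoter over intron density was 1.503 in Prr14-KO, and promoter over intergenic density 1.541 in Prr14-KO and 1.317 in Prr14-WT. Without the strongest region of each class the Prr14-KO ratios were 1.315 over introns and 1.299 over intergenic regions. The cause of these shifts was not tested. The promoter median stayed positive in all alternatives, from 0.0496 without Prr14-KO replicate 4 to 0.2439. Promoter regions and densities under the scaling of promoter sums, and sums under that of the region table, were added after seeing the data. No paired analysis was possible because the groups share only the replicate number 4. Intervals and SEs cover counting error and the spread of 3 libraries per group.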
